A study of Mus musculus with 4 samples.

Results

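The neurotrophin genes Bdnf and Ntf3 and the receptor genes Ntrk2, Ntrk3, Ngfr and Sort1 were examined on expression arrays of the mouse hippocampus after chronic fluoxetine, an antidepressant that blocks the reuptake of serotonin. A probeset, the group of short probes that reports 1 transcript target on these Affymetrix arrays, was taken as a member where the platform annotation gave it 1 gene symbol and that symbol was one of the 6. This gave 24 of the 45101 probesets on the array: 2 for Bdnf, 8 for Ntrk2, 8 for Ntrk3, 3 for Ngfr, 3 for Sort1 and 0 for Ntf3, which is therefore not analysed here. The mice were males of the inbred strain DBA/2J aged 8 to 10 weeks by the labels. The fluoxetine group drank water made up to deliver 18 mg/kg of the drug per day for 21 days, and the control group drank untreated water (0 mg/kg). Each group had 12 mice, whose hippocampal RNA was mixed into 2 pools of 6, with 1 array for each pool, so the spread among single animals was not measured. Values are intensities that the authors normalized with GCRMA, in arbitrary units on a linear scale, and they compare a probeset between arrays but not with another probeset.

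Neurotrophins are secreted proteins that keep neurons alive and adjust their synapses. Bdnf, the brain-derived neurotrophic factor, signals through the receptor tyrosine kinase TrkB (Ntrk2), and neurotrophin-3 (Ntf3) signals mainly through TrkC (Ntrk3). The receptor p75 (Ngfr) binds all neurotrophins and, together with sortilin (Sort1), their uncleaved precursors, while sortilin also sorts the Bdnf precursor inside the cell. In the hippocampus Bdnf is made largely by excitatory neurons in response to activity, and its transcription starts at several alternative exons that are all joined to the same coding exon.

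Those starts are shown here because both Bdnf probesets, and no other member probeset, passed the test below. RefSeq sequence of build GRCm38.p6 gave 7 start windows for Bdnf, 2 for Ntf3 and 1 each for Ntrk2 and Ngfr, so 4 of the 6 genes matched. The Bdnf gene lies on chromosome 2 from 109674700 to 109727043. The 250 bases before each start were searched on both strands for TGACG, the core of the cyclic AMP response element through which activity-dependent transcription factors act, and for the complete 8-letter element TGACGTCA, which contains that core. The core was found in 1 of the 7 Bdnf windows, on the reverse strand and beginning 35 bases before the start, and the complete element in 0 of them. Of all 32851 windows of this length, 17.8% held the core and 1.55% the complete element. The lines below give the most upstream Bdnf window, the Bdnf window with the core in capitals, and the window of the receptor gene Ntrk2, all on the plus strand. The Bdnf window with the core lies inside the span of its gene and the Ntrk2 window partly so, since their starts lie downstream of the gene's first base.
Bdnf, most upstream start, chr2:109674450-109674699: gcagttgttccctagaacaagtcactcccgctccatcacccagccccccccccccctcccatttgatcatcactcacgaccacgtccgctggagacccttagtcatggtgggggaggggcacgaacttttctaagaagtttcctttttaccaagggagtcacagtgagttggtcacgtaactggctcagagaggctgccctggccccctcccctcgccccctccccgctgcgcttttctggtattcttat
Bdnf, start with the core, chr2:109692186-109692435: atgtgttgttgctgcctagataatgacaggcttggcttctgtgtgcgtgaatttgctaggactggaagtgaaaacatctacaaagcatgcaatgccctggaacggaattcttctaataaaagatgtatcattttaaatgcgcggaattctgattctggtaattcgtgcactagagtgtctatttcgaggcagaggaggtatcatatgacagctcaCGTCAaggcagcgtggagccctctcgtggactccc
Ntrk2, chr13:58806319-58806568: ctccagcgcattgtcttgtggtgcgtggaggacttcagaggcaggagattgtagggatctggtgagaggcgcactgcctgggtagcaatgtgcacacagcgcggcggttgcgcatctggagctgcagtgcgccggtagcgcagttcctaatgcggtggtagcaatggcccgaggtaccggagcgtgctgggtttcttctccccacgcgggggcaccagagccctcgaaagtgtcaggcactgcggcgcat
Such a match describes the letters of the window only. The sequence is that of the C57BL/6J reference and not of DBA/2J, and the sources used here do not tell which start exons the Bdnf probesets report.

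A probeset was tested where it reached the submitters' intensity minimum of 100 in at least 2 of the 4 arrays. Of the 24 member probesets 14 were tested, and 10 were too dim. Hippocampal neuron markers were present, with 9 of 9 genes tested. Array medians lay between 22.6 and 23.3. The groups were compared with limma on the log2 scale, and p-values were adjusted over all 16938 tested probesets. Of the 14 tested member probesets 2 rose and 0 fell, against a background of 1.72% of all tested probesets called in either direction, 1.03% higher and 0.685% lower. Both calls belong to Bdnf. The dimmer of the 2 probesets, 1422169_a_at, reached 100 in the fluoxetine arrays only. It was therefore tested only through the group in which it was high.

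**Figure D1:**
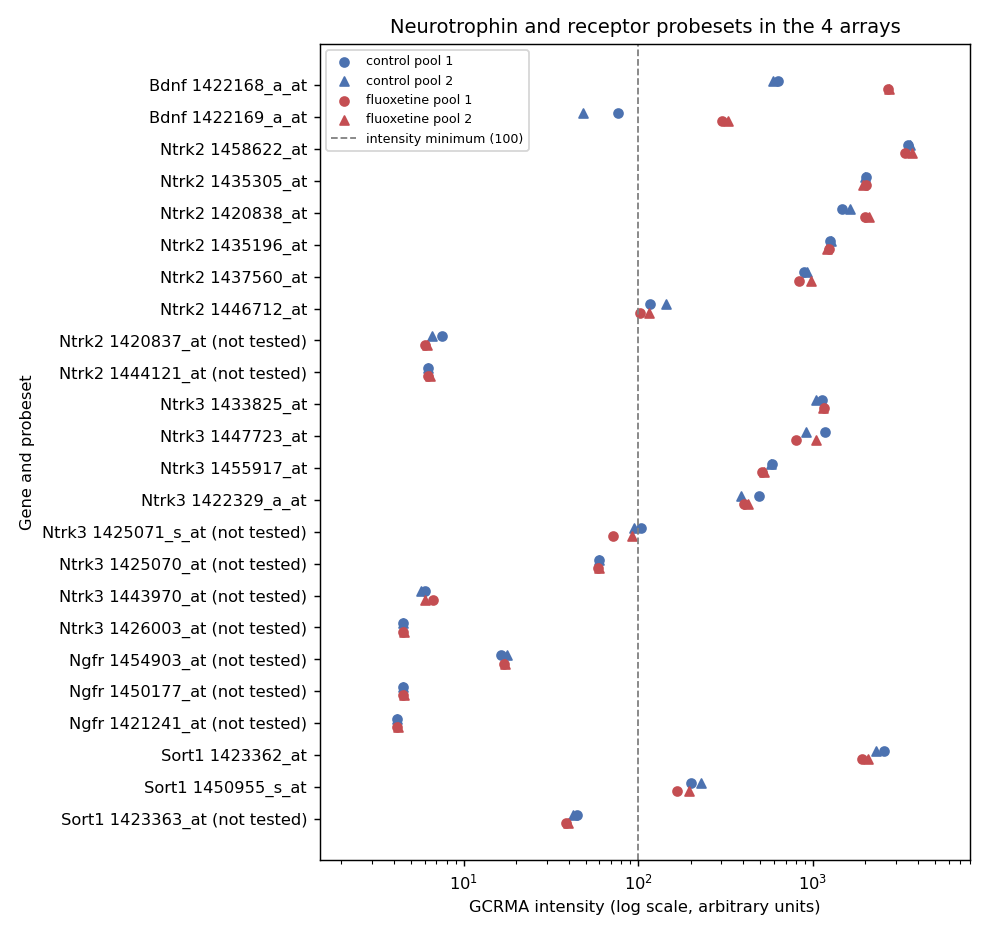
Intensity (log scale, arbitrary units) of all 24 member probesets in control pools 1 and 2 (blue) and fluoxetine pools 1 and 2 (red), with the intensity minimum of 100 dashed. The fluoxetine points lie well to the right of the control points for both Bdnf probesets, and the points of the other genes lie close together.

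Bdnf messenger RNA was higher in the fluoxetine pools, and both of its probesets rose. Its brighter probeset (1422168_a_at) read 628 and 593 in control pools 1 and 2 and 2700 and 2741 in fluoxetine pools 1 and 2. The 2 control values lie close together, the 2 fluoxetine values lie closer still, and the groups are far apart. The mean went from 611 to 2721, a 4.45-fold rise, which is 2.16 ± 0.07 on the log2 scale (SE, n = 2 pools a group, 95% interval 1.97 to 2.34, adjusted p = 0.00614). The dimmer probeset (1422169_a_at) read 76.9 and 48.5 in controls against 304 and 329 after fluoxetine. Because both control values were under the minimum of 100, its fold was taken against 100, giving at least 3.16-fold. The fit gave log2 2.37 ± 0.23 (n = 2 pools per group, adjusted p = 0.0352), a size that rests on control values under the minimum. It was 1.66 with values floored at 100 (adjusted p = 0.0135) and 1.89 with a pseudocount of 32 (adjusted p = 0.0224), with an adjusted p of 0.0135 to 0.191 over all alternatives. Both probesets were derived from the same accession and carry an identifier that marks a match to several transcripts of a gene, so they are not independent measurements of Bdnf.

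Ranked by log2 fold change among all 16938 tested probesets, the brighter Bdnf probeset stood at place 14 from the top. By the submitters' own rule of a difference of at least 2-fold, both probesets would be taken, as were 0.791% of all tested probesets (0.667% higher and 0.124% lower). With 2 arrays a group, the smallest p of an exact permutation test is 0.333, and the call rests on limma, which borrows spread from the other probesets. Without any 1 of the 4 arrays the log2 fold change of the brighter probeset stayed between 2.11 and 2.20 and its adjusted p lay between 0.0667 and 0.127, and that of the dimmer stayed between 2.04 and 2.70 with an adjusted p of 0.0876 to 0.167, so both calls were lost with each of control pool 1, control pool 2, fluoxetine pool 1 and fluoxetine pool 2 left out. With no intensity filter both calls ended too (adjusted p = 0.147 and 0.191).

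Some glial and vascular markers also moved with the groups. Of 10 tested astrocyte markers 2 rose, 0 fell and 8 did not pass. Gfap rose from a mean of 422 to 2898 (log2 2.78 ± 0.14, adjusted p = 0.0172 by limma). Aqp4 rose from 2949 to 6183 (log2 1.07 ± 0.08, adjusted p = 0.0262 by limma). Each had 3 of 3 tested probesets passing. The intensity summed over the list, to which bright genes add most, was 66242 to 68578 in control and 75858 to 79565 in fluoxetine pools. Of 9 tested microglia markers 5 rose and 0 fell (7228 to 7414 against 11238 to 11461), and of 7 tested endothelial and mural markers 2 rose and 0 fell (3567 to 3590 against 4885 to 4968). For comparison, 1.31% of 9030 tested genes rose and 0.554% fell at their brightest probeset. The hybridisation spike-ins, RNA added to every sample in equal amount, were higher in both fluoxetine arrays as well, with a median log2 difference of 0.36, against -0.04 for the tested probesets as a whole. The part of these shifts in the Bdnf rise was not tested. In bulk tissue, fewer cells of a type and less RNA per cell cannot be told apart. Hippocampal neuron markers had 0 calls by limma at their brightest probesets, with 3 of 9 at an unadjusted p under 0.05, beside 22.5% of all tested probesets. Of the 3, Slc17a7 (log2 0.25 ± 0.08) and Neurod2 (0.27 ± 0.09) lay higher in the fluoxetine pools and Calb1 lower. Of the 9, 5 lay above 0, with a list median of 0.17. Their summed intensity, to which bright genes add most, ran from 22897 to 26130 in control and from 22071 to 22284 in fluoxetine pools. The calcium buffer gene Calb1 had 1 of its 3 tested probesets lower (363 to 163, log2 -1.16 ± 0.14, adjusted p = 0.0436), while its brightest was at -0.45 (adjusted p = 0.0771). The astrocyte marker Slc1a2 had 1 of its 3 tested probesets higher (323 to 547, log2 0.76 ± 0.10, adjusted p = 0.0494), while its brightest was at 0.11 (adjusted p = 0.370).

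**Figure D2:**
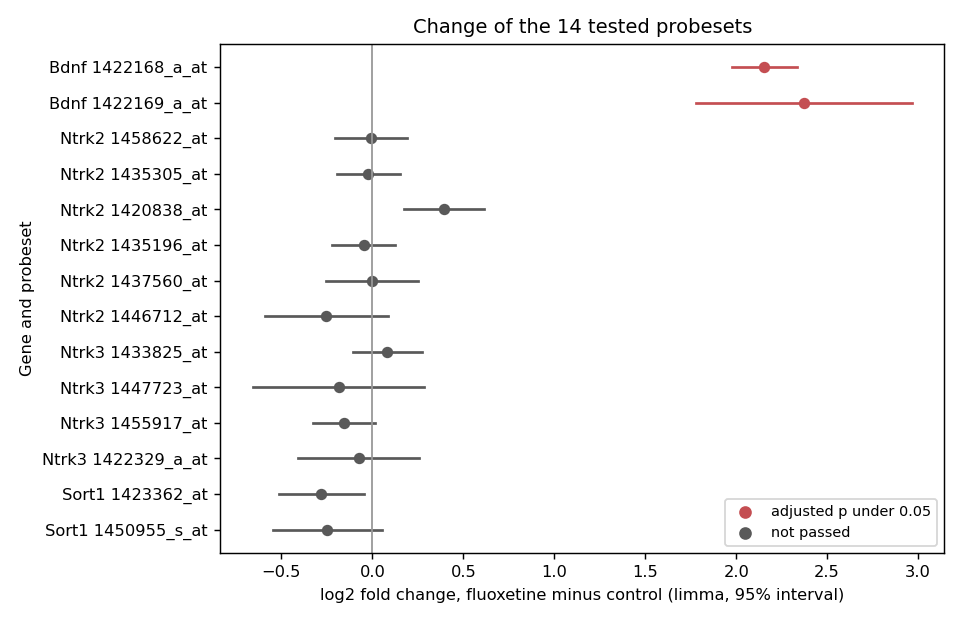
Log2 fold change (fluoxetine minus control) of the 14 tested member probesets with its 95% interval from limma, red where the adjusted p was under 0.05. The intervals of both Bdnf probesets begin at 1.78 or higher, and the receptor probesets lie between -0.28 and 0.39.

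The receptors did not show a change of that size. None of the 12 tested probesets of Ntrk2, Ntrk3 and Sort1 passed, the smallest adjusted p being 0.0957, and their folds ran from 0.823 to 1.31. By unadjusted limma p, 2 of the 12 were under 0.05, against 22.5% of all tested probesets. The 95% intervals of all 12 stayed within 0.66 of 0 on the log2 scale, so a change as large as that of Bdnf lies outside each of them. Their median log2 fold change was -0.06, beside -0.04 over all tested probesets. Values of the groups did not overlap for 7 of the 12, beside 56% of all tested probesets.

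Ntrk2 encodes TrkB, the receptor of Bdnf, as a full-length kinase and as truncated forms that lack the kinase domain and are abundant in astrocytes. The gene lies on chromosome 13 from 58806472 to 59133970. Its brightest probeset (1458622_at) read 3526 and 3589 in control and 3387 and 3700 in fluoxetine pools, and the groups overlap. The log2 fold change was -0.01 ± 0.08 (95% interval -0.21 to 0.19, adjusted p = 0.967). Probeset 1435305_at read 2017 and 1995 in control and 2017 and 1937 in fluoxetine pools (log2 -0.02 ± 0.07). Probeset 1437560_at read 890 and 921 in control and 837 and 977 in fluoxetine pools (log2 -0.0016 ± 0.10, 95% interval -0.26 to 0.25). The signs of these small differences were not stable, since all 3 turned positive when each array was centred on its median. Probeset 1435196_at read 1258 and 1265 in control and 1243 and 1199 in fluoxetine pools (log2 -0.05 ± 0.07), close values whose groups do not overlap.

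A further pair of Ntrk2 probesets lay farther from 0. Probeset 1420838_at read 1471 and 1634 in control pools and 1985 and 2088 in fluoxetine pools. Both fluoxetine values are above both control values, a 1.31-fold difference that did not pass (log2 0.39 ± 0.08, n = 2 pools per group, 95% interval 0.17 to 0.61, unadjusted p = 0.00605, adjusted p = 0.0957 by limma). The dimmest tested probeset (1446712_at) read 117 and 144 in control and 103 and 115 in fluoxetine pools, just above the minimum, and its difference did not pass either (log2 -0.25 ± 0.13, adjusted p = 0.323). Whether 1420838_at moved differently from the rest of the gene was tested with limma's diffSplice over the 9672 probesets of 3748 genes with more than 1 tested probeset, a test chosen after these values were seen. Its difference from the other 5 probesets was log2 0.46, which did not pass (adjusted p = 0.149), as 0.0207% of those 9672 probesets did. With no intensity filter it did pass (adjusted p = 0.0304), but the comparison then also took in the gene's 2 untested, dim probesets. The difference was positive under all 12 alternatives tried (0.42 to 0.50) and passed under 1 of them. Which Ntrk2 transcripts each probeset reports was not determined here. The 2 untested Ntrk2 probesets (1420837_at and 1444121_at) read 6.03 to 7.51 in the 4 arrays.

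Ntrk3 encodes TrkC, the main receptor of neurotrophin-3, and lies on chromosome 7 from 78179986 to 78581034. Its brightest probeset (1433825_at) read 1128 and 1051 in control and 1166 and 1139 in fluoxetine pools (log2 0.08 ± 0.07, 95% interval -0.11 to 0.27, adjusted p = 0.547). The groups do not overlap, but they are separated by less than the gap between the control pools. Probeset 1455917_at read 581 and 574 in control and 513 and 524 in fluoxetine pools, a difference of log2 -0.16 ± 0.06 that did not pass (adjusted p = 0.248). Probeset 1447723_at read 1171 and 916 in control and 798 and 1041 in fluoxetine pools, with overlapping groups and a wide 95% interval of -0.66 to 0.29. Probeset 1422329_a_at also overlapped, at 492 and 390 in control and 406 and 425 in fluoxetine pools (log2 -0.08 ± 0.13).

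The 4 untested Ntrk3 probesets were dim. The brightest of them, 1425071_s_at, reached 100 in 1 array only, reading 103 and 95.3 in control and 72.2 and 92.7 in fluoxetine pools. The others (1425070_at, 1443970_at and 1426003_at) stayed under 60 in every array. Of the 8 Ntrk3 probesets, none could be said to differ between the groups, and of the 4 tested, 1 lay above 0 and 3 below.

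Ngfr encodes p75, which in the adult forebrain is best known from the cholinergic neurons that project to the hippocampus and whose cell bodies lie outside it. The gene lies on chromosome 11 from 95568818 to 95587698. Its 3 probesets never reached the minimum. Probeset 1454903_at read 16.5 and 17.6 in control and 17.0 and 17.2 in fluoxetine pools, and 1450177_at and 1421241_at stayed between 4.17 and 4.56. Values this low carry no usable difference, since GCRMA pulls dim probesets towards a common floor. The 4 markers of cholinergic neurons were equally dim, with 0 of 4 tested and a summed intensity of 16.8 to 16.9 in the 4 arrays.

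Sort1 encodes sortilin, the sorting receptor that binds neurotrophin precursors, and lies on chromosome 3 from 108283974 to 108361519. Its brightest probeset (1423362_at) read 2566 and 2292 in control and 1921 and 2075 in fluoxetine pools. Both fluoxetine values are below both control values, a 0.823-fold difference that did not pass over all probesets (log2 -0.28 ± 0.09, n = 2 pools per group, 95% interval -0.52 to -0.05, unadjusted p = 0.0282, adjusted p = 0.175 by limma). Probeset 1450955_s_at read 201 and 228 in control and 166 and 195 in fluoxetine pools (log2 -0.25 ± 0.12, adjusted p = 0.288), again with both fluoxetine values the lower. The remaining one (1423363_at) read 44.7 and 42.1 in control and 38.8 and 39.9 in fluoxetine pools and was too dim to be tested. All 3 share 1 accession and are no independent support of each other. The log2 difference of the brightest probeset was negative under all 16 alternatives, from -0.36 to -0.20, and passed under 0 of them by limma (adjusted p = 0.119 at the lowest).

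Among the other genes of the pathway, 79 were tested of 116 listed, and at their brightest probesets 7 rose, 1 fell and 71 did not pass. Of those 71, Homer1 and Rps6ka5 each had another probeset that passed, given with their lists. Of the 66 outside the list of neurotrophin-responsive genes 2 rose and 1 fell, beside 1.86% of all tested genes called in either direction. The median log2 fold change over the 79 genes was 0.02, beside -0.03 over all 9030 tested genes. Without any 1 of the 4 arrays, 0 of these calls remained by limma. The other ligand with a named probeset, Ntf5 (neurotrophin-4), read 8.05 to 8.41 in the 4 arrays and was not tested.

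Sortilin's relatives are receptors of the same domain family, and 1 of the 5 tested genes of the list of other receptors and co-receptors rose while 0 fell. That gene was Sorcs3, at 269 and 249 in control and 459 and 529 in fluoxetine pools (log2 0.93 ± 0.10, n = 2 pools per group, adjusted p = 0.0380 by limma), with 1 of its 2 tested probesets passing. Sorcs1 read 74.7 and 102 in control and 196 and 235 in fluoxetine pools and just missed the threshold (log2 1.30 ± 0.18, adjusted p = 0.0519). It passed under quantile normalization (adjusted p = 0.0421) and under 4 other alternatives, with a range of 0.0343 to 0.241 over all of them. The list median was 0.30. Beside the 1 rise among 5, 1.31% of 9030 tested genes rose. Both tested probesets of Sort1 lay lower in the fluoxetine pools while both of these relatives lay higher, and that contrast between genes was not tested.

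Adapters and kinases that pass on the Trk signal gave 28 tested genes, of which 1 rose, 1 fell and 26 did not pass (median -0.08). Among all 9030 tested genes 1.31% rose and 0.554% fell. Grb2, the adapter that links phosphorylated receptors to Ras activation, read 741 and 729 in control and 1113 and 1111 in fluoxetine pools (log2 0.60 ± 0.06, adjusted p = 0.0380). Rasgrf1, a calcium-dependent activator of Ras in neurons, fell from 9878 and 9754 to 6984 and 6715 (log2 -0.52 ± 0.07, adjusted p = 0.0463). Rps6ka5, a kinase activated by MAP kinases, missed the threshold at its brightest probeset (log2 -0.52 ± 0.10, adjusted p = 0.0847), while its other tested probeset fell from a mean of 304 to 195 (log2 -0.64 ± 0.07, adjusted p = 0.0380). For Grb2 and Rasgrf1 the pools of a group nearly coincide. Their groups are well apart, although 1 of 2 tested Grb2 probesets and 1 of 3 of Rasgrf1 passed, and the Rasgrf1 call ended when probesets reaching 100 in only 1 array were added (adjusted p = 0.0569, with 0.0167 to 0.201 over all alternatives).

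The 6 tested genes of precursor processing and extracellular proteolysis gave 0 calls by limma. Of the 6, 3 were at an unadjusted p under 0.05, beside 22.5% of all tested probesets. Plat, the tissue plasminogen activator that generates plasmin, a protease able to cleave the Bdnf precursor, read 525 and 559 in control and 959 and 819 in fluoxetine pools and did not pass (log2 0.71 ± 0.10, adjusted p = 0.0558). Its call appeared under 4 alternatives, among them median centring (adjusted p = 0.0374, with 0.0331 to 0.219 over all alternatives). Serpini1, neuroserpin, the brain inhibitor of that protease, lay the other way at 5431 and 6164 in control and 4618 and 4788 in fluoxetine pools (log2 -0.30 ± 0.09, adjusted p = 0.154).

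The 7 tested adapters of p75 gave 0 calls by limma (median -0.09). Of them, 2 were at an unadjusted p under 0.05, beside 22.5% of all tested probesets. These were Maged1 at log2 -0.25 ± 0.09 and Mapk8, a stress-activated kinase, at -0.24 ± 0.08. The 7 tested feedback inhibitors of receptor tyrosine kinase signalling also gave 0 calls by limma, with 1 at an unadjusted p under 0.05. All 7 lay above 0, also under quantile normalization and median centring (median 0.20). Their groups did not overlap for 4 of the 7, beside 56% of all tested probesets. Other lists leaned the other way, with 7 of 28 Trk adapters and kinases and 4 of 13 transcriptional regulators of Bdnf above 0. Spry2, a Sprouty protein, read 798 and 766 in control and 903 and 1434 in fluoxetine pools (log2 0.54 ± 0.23, adjusted p = 0.250), so its difference came mainly from fluoxetine pool 2. Dusp4, a phosphatase of MAP kinases, read 116 and 104 in control and 164 and 146 in fluoxetine pools (log2 0.49 ± 0.10, adjusted p = 0.0867).

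Of 13 tested transcriptional regulators of Bdnf, 0 passed by limma, and the median was -0.11. Of the 13, 4 were at an unadjusted p under 0.05, beside 22.5% of all tested probesets. Of those 4, Crem lay higher in the fluoxetine pools. Crtc1 (log2 -0.36 ± 0.09), Crebbp (-0.29 ± 0.11) and Usf2 (-0.24 ± 0.09) lay lower. Crem, a cyclic AMP response factor, was at log2 0.54 ± 0.15 (adjusted p = 0.145). Npas4, an activity-induced factor that acts on Bdnf, read 125 and 142 in control pools but 36.7 and 270 in fluoxetine pools 1 and 2, so the fluoxetine pools lay on either side of both controls (adjusted p = 0.820). Creb1, which binds the cyclic AMP response element, read 891 and 911 in control and 903 and 919 in fluoxetine pools (log2 0.02 ± 0.06). Creb1, Crtc1, Crebbp and Usf2 were named after their values were seen.

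Neurotrophin-responsive and activity-induced genes gave the most calls of the pathway lists, with 5 of 13 tested genes higher, beside 1.31% of 9030 tested genes. Of the 13, 0 were lower, and the median of this list was 0.80. The choice of this list drew on earlier results of these data, so its count is no independent evidence. Npy, neuropeptide Y, rose from 1236 and 1436 in control to 5944 and 6508 in fluoxetine pools (log2 2.22 ± 0.10, adjusted p = 0.0172). Nptx2, a pentraxin that gathers glutamate receptors at synapses, read 61.7 and 49.2 in control and 349 and 397 in fluoxetine pools, at least 3.72-fold higher against 100. It reached 100 in the fluoxetine arrays only, so it was tested only through the group in which it was high. Gadd45b, a stress-inducible gene (log2 1.28 ± 0.12), Egr3, a transcription factor (log2 1.09 ± 0.10), and Vgf, a secreted neuropeptide precursor (log2 0.80 ± 0.08), rose too. Homer1, a synaptic scaffold gene, was at log2 0.12 ± 0.08 at its brightest probeset, but 1 of its 5 tested probesets rose from a mean of 446 to 3370 (log2 2.92 ± 0.19, adjusted p = 0.0252).

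**Figure D3:**
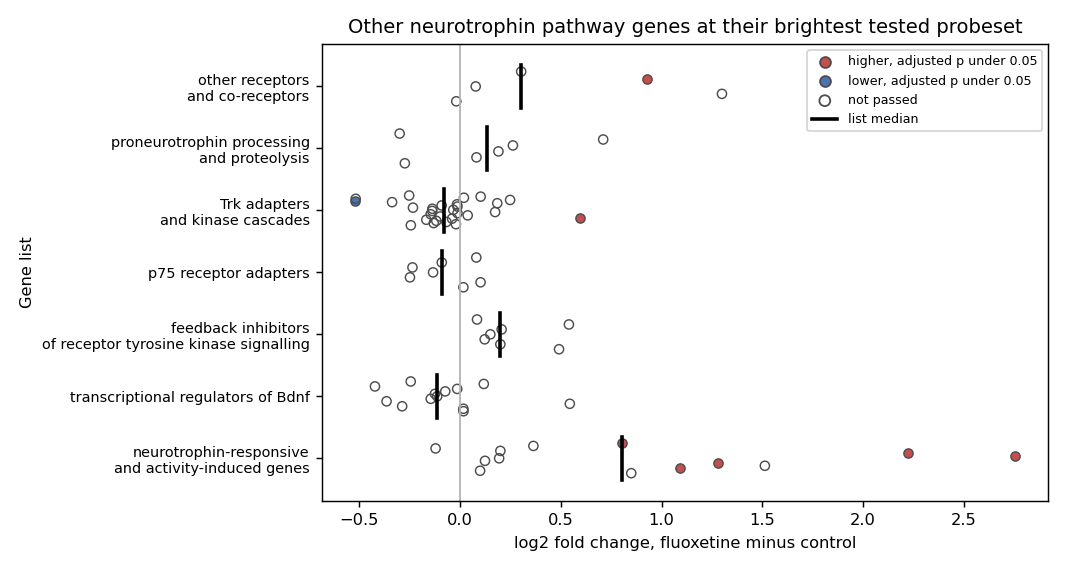
Log2 fold change (fluoxetine minus control) of the tested genes of 7 pathway lists at their brightest probeset, filled where the adjusted p was under 0.05, with the list median as a black bar. The medians of the lists of adapters, p75 partners and Bdnf regulators lie slightly below 0 (-0.08, -0.09 and -0.11). The list of responsive genes holds 5 of the 7 rises.

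The genes most like Bdnf in pattern were found by the Euclidean distance between log2 values over the 4 arrays, each probeset centred on its own mean, to the brighter Bdnf probeset. The nearest were S100a6, a calcium-binding protein gene (distance 0.18), the collagen chain gene Col3a1 (0.18), Npy (0.23), the membrane peptidase gene Ecel1 (0.30) and Olfm4, a secreted olfactomedin (0.33). S100a6 read 348 and 296 in control and 1592 and 1454 in fluoxetine pools, a log2 fold change of 2.25 close to the 2.16 of Bdnf. Col3a1 was dimmer, at 59.0 and 56.4 in control and 239 and 223 in fluoxetine pools, at least 2.31-fold higher against 100. All control values of Col3a1, Ecel1 and Olfm4 were under the minimum, so their places in this order rest on such values. With values floored at 100 their log2 fold changes were 1.21, 0.31 and 1.06, and that of Ecel1 no longer passed (adjusted p = 0.132, with 0.00899 to 0.157 over all alternatives). The second Bdnf probeset stood at place 9 among all named probesets (distance 0.47), farther away than these because its control values, also under the minimum, differ more. Over 4 arrays in 2 groups this measure mainly selects genes with a rise of similar size and close replicates.

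**Figure D4:**
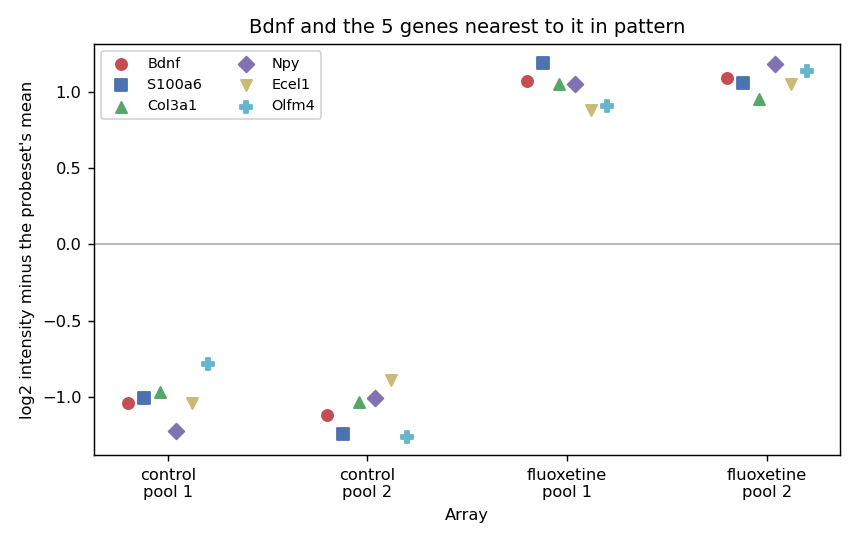
Log2 intensity of the brighter Bdnf probeset and of the 5 genes nearest to it in each of the 4 arrays, minus each probeset's mean over the arrays. All 6 genes lie below 0 in both control pools and above 0 in both fluoxetine pools.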

How the data were processed

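Hippocampal RNA pools were hybridised to 4 Affymetrix Mouse Genome 430 2.0 arrays, 2 per group, and groups were taken from the sample titles. The deposited values are linear intensities that the authors normalized in ArrayAssist by GCRMA, as the design text of the labels states, and no software version is given in the sources used here. GCRMA corrects background by probe sequence and summarises each probeset. Values were taken to log2 without a pseudocount. Probesets reaching 100 in at least 2 of 4 arrays were tested (16938), leaving out 64 Affymetrix controls, with limma 3.58.1 in R 4.3.3 (lmFit, eBayes, two-sided, Benjamini-Hochberg over all tested probesets, threshold 0.05). Means are geometric and errors are limma standard errors. Names came from the platform annotation, by which 34958 of 45101 probesets have 1 symbol, 932 several and 9211 none. Of the 34958, 34754 were found by gene number in RefSeq's gene table (GRCm38.p6), and 0 symbols changed. List counts use a gene's brightest tested probeset, which stands for 9030 genes. Named are all member probesets, in each pathway list the 2 largest absolute changes and any call, and the 5 genes nearest to Bdnf in pattern, leaving out clone and predicted-gene names. Further lists marked striatum, meninges, choroid plexus and oligodendrocytes. Data were simulated for this comparison (16938 probesets, 10 runs, 200 changed per run) with independent normal noise and spreads drawn from limma's own fitted variance model. The fit found 5.2% of the changes made at a log2 size of 0.5, 78% at a size of 1 and 97.2% at a size of 2. Of what it called, 4.17% had not been changed. Because the simulated noise followed the model that limma assumes, that share is no estimate of false calls in the real arrays. The members and lists were chosen with earlier results of these data known. Alternatives were other filters, scalings, a floor, a pseudocount, variance models, array weights, the pool number as a block, leaving out arrays, and leaving out probesets matching several transcripts. The labels call the pools biological replicates.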

Additional observations from a re-analysis of the deposited data

Results flagged for a closer look

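The hybridisation spike-ins are control probesets outside the gene comparison. In all 18 of them both fluoxetine values exceeded both control values, by a median log2 of 0.36 (0.17 to 0.55), which singled them out as a signal in data that the comparison does not use. The member probesets other than Bdnf had a median log2 fold change of -0.06, beside -0.04 over all tested probesets. The part of the spike-in shift in the Bdnf difference was not tested.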

How the results depend on the processing

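The count of called probesets, 291, was 0 with no intensity filter (5396 at an unadjusted p under 0.05 by limma), 163 with 100 reached in at least 1 array, 460 with an intensity trend in eBayes, 193 without probesets matching several transcripts and 9 with the pool number as a replicate block. Leaving out any 1 array gave 0 (2657 to 3515 at an unadjusted p under 0.05 by limma). The 2 called member probesets became 0 with no filter (6 unadjusted by limma), 1 with 100 reached in all 4 arrays, since the dimmer Bdnf probeset was then not tested, 1 with the replicate block, and 0 with any 1 array left out (3 to 5 unadjusted). Without probesets matching several transcripts neither Bdnf probeset was tested, and the count was 0 (2 unadjusted by limma). The 18 called genes of the pathway and marker lists became 0 with no filter (51 unadjusted by limma), 3 with the replicate block and 0 with any 1 array left out (39 to 50 unadjusted). The 134 probesets of the 2-fold rule became 295 with no filter, 81 with 100 reached in all 4 arrays and 79 with a pseudocount of 32, and ran from 138 to 157 with an array left out.

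With the pool number as a block the brighter Bdnf probeset still passed and the dimmer did not (adjusted p = 0.0966). The pool numbers have no stated meaning, and the deviations of same-numbered pools correlated at 0.139 over tested probesets, from only 2 pairs. Differences near 0 changed sign. Under median centring Ntrk2 1458622_at was at 0.021, 1435305_at at 0.0064 and 1437560_at at 0.026, the last at 0.028 under quantile normalization. With a floor of 100 Npas4 was at 0.30. With any 1 array left out, Ntrk2 1458622_at ran from -0.071 to 0.057, 1435305_at from -0.051 to 0.0074 and 1437560_at from -0.11 to 0.11, Ntrk3 1447723_at from -0.38 to 0.0070 and 1422329_a_at from -0.24 to 0.092, and Npas4 from -1.86 to 1.02. The cause of these changes was not tested. The number of arrays and, for the 10 untested member probesets, signal mostly under the minimum of 100 limit what can be seen.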

Other observations

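The fluoxetine pools disagreed for several activity-induced genes of the pathway lists, and for the feedback inhibitor Spry2, while agreeing more closely for Bdnf and for other activity-induced genes. These genes were chosen after their values were seen. Fos read 268 and 230 in control pools and 483 and 1039 in fluoxetine pools 1 and 2, and Arc read 289 and 233 in control and 365 and 599 in fluoxetine pools. Egr1 read 2238 and 2563 in control and 2125 and 3100 in fluoxetine pools. Npas4 (36.7 and 270) and Spry2 (903 and 1434) were also higher in fluoxetine pool 2 than in fluoxetine pool 1. In the same arrays Bdnf read 2700 and 2741, and Npy 5944 and 6508. Other called genes of the responsive list also lay nearer together, with Nptx2 at 349 and 397, Vgf at 2722 and 2938 and Egr3 at 5914 and 7036. Gadd45b lay the other way, at 454 and 363. Bdnf was therefore not alone among activity-induced genes in having close fluoxetine pools. None of Fos, Arc, Egr1, Npas4 and Spry2 passed between the groups by limma. The choroid plexus markers differed by pool number in both groups, with summed intensities of 38036 and 2095 in control pools 1 and 2 and 51340 and 4515 in fluoxetine pools 1 and 2. Nearly all of each sum was 1 gene, Ttr, at 37856 and 2002 in control and 51101 and 4429 in fluoxetine pools. The other tested marker, Kl, read 120 and 49.0 in control and 120 and 31.7 in fluoxetine pools. Between the groups 0 of the 2 tested passed by limma (0 at an unadjusted p under 0.05). Oligodendrocyte markers gave 0 calls among 9 tested by limma (0 unadjusted) and striatum markers 0 among 2 (1 unadjusted). Meninges and fibroblast markers gave 1 rise among 6, that of Col3a1. Beside these counts, 22.5% of all tested probesets were at an unadjusted p under 0.05, and 1.31% of 9030 tested genes rose.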
